A study of Mus musculus with 15 samples.

Results

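KEAP1 KO #2 is a single-cell clone of the mouse Lewis lung carcinoma line LL2, made by nucleofection with a plasmid that carried Cas9, GFP and a guide RNA against Keap1, and it was compared here with the LL2 WT line it was derived from. Both lines were profiled as 3 samples of polyA-selected RNA, so the comparison used 6 of the 15 samples of the series. The other 9 samples came from 2 further KEAP1 KO clones (KEAP1 KO #1 and KEAP1 KO #3), made in the same way, and from 1 NRF2 KO clone, with 3 samples each. All 5 lines carry the luciferase reporter of the purchased LL2 line, and all were grown in DMEM with 10% fetal bovine serum for 24 h after splitting, with no drug treatment. Each knockout line is 1 sorted clone while LL2 WT is an uncloned parental line, so an effect of the Keap1 edit and a trait of the founder cell cannot be told apart within KEAP1 KO #2.

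KEAP1 is the substrate adaptor of a CUL3 ubiquitin ligase that holds the transcription factor NRF2 (gene Nfe2l2) at a low level by continuous degradation. Electrophiles and oxidants modify KEAP1 cysteines, NRF2 then escapes, enters the nucleus, pairs with small MAF proteins and binds antioxidant response elements in the promoters and enhancers of genes for glutathione synthesis, NADPH supply, detoxification and drug export. Loss of KEAP1 in lung cancer leaves this programme on without a stimulus.

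The values were CPM (counts normalised to the library total) for each gene symbol. The depth of each sample is unknown from CPM, which limits the precision of genes near 0. After genes whose CPM summed to less than 3 over the 15 samples were removed, 14652 genes were tested with limma on log2(CPM + 0.1). A gene is said to have risen or fallen when its adjusted p was under 0.05 and its log2 fold change (log2FC, KEAP1 KO #2 over LL2 WT) exceeded 1 in size. On this scale fold changes of genes near 0 are understated, and a fold written as at least a value was computed against a floor of 0.1 CPM. Errors of means are SD over 3 samples, and errors of log2FC are SE from the model. Samples 1 and 2 of KEAP1 KO #2 were closer to each other than any other pair within a line. Over genes of 100 to 200 CPM, the robust SD of their log2 difference was 0.0570, against 0.241 and 0.253 for the pairs with sample 3 and 0.207 to 0.556 for the LL2 WT pairs. The spread of that pair was 0.0510 over genes of at least 1000 CPM, where counting noise is smaller. Samples 1 and 2 of KEAP1 KO #3 were also close (0.0884 over genes of 100 to 200 CPM, against 0.274 and 0.268 for its pairs with sample 3). The samples were kept separate as labelled, but samples 1 and 2 of either clone may be technical replicates. In that case n is overstated for the clone, and in the comparison of KEAP1 KO #2 with #3 possibly on both sides. Counts are also given below with samples 1 and 2 averaged. Sample 3 stood apart in both lines, and its deviations from the line means correlated across genes between KEAP1 KO #2 and LL2 WT (r = 0.437 over 11676 genes, which are not independent).

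Against LL2 WT, 870 genes rose in KEAP1 KO #2 (5.94% of those tested) and 1136 fell (7.75%), while the median log2FC of all genes was 0.03. Most changes were moderate. Of the genes that rose, 510 did so by no more than 4-fold and 70 by more than 16-fold, and of those that fell the numbers were 680 and 72. In 48 of the genes that rose, LL2 WT was listed at 0 in every sample. In RNA from a whole culture, fewer cells that express a gene and less RNA per cell cannot be told apart. Without sample 3 of every line, 812 genes rose and 1275 fell. With samples 1 and 2 of KEAP1 KO #2 averaged, 751 rose and 814 fell, and with this done in every line 632 rose and 684 fell.

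**Figure D1:**
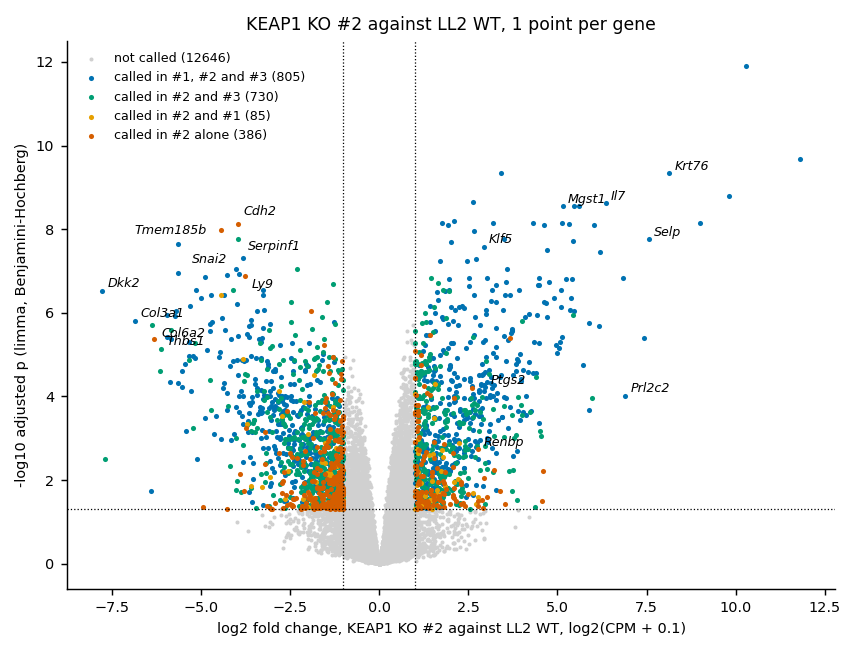
Each point is 1 of 14652 genes, with the log2 fold change of KEAP1 KO #2 against LL2 WT on the x axis and -log10 of the adjusted p on the y axis, coloured by which of the 3 KEAP1 KO clones were called in the same direction. The 805 genes called in all 3 clones include most of the points at the far right, such as Krt76 and Selp, whereas Cdh2, Tmem185b and Ly9 stand among the lowest adjusted p values of the genes called in KEAP1 KO #2 alone.

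The targeted gene checked the labels. Keap1 was at 24.0, 21.98 and 22.9 CPM across the LL2 WT samples against 4.28, 5.01 and 7.29 CPM in those of KEAP1 KO #2 (log2FC = -2.07 ± 0.21, adjusted p = 1.41e-05). The groups did not overlap, and transcript remained in every sample of the clone. KEAP1 KO #3 had a mean of 5.58 CPM and KEAP1 KO #1 a mean of 11.8 CPM, and the difference of KEAP1 KO #2 from #1 was -1.12 ± 0.21 (adjusted p = 0.00497). Nfe2l2 mRNA, which is regulated mainly at the protein level, was at 179, 170.2 and 208 CPM across the LL2 WT samples against 124, 122 and 124 CPM in those of the clone (log2FC = -0.59 ± 0.12, adjusted p = 0.00330), a difference under the fold change threshold.

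The genes with the largest increases encoded detoxifying enzymes, keratinocyte proteins, adhesion molecules and secreted factors. Among the glutathione S-transferases, which conjugate glutathione to electrophiles, Gsta1 and Gsta2 were listed at 0 in all LL2 WT samples and reached 129 ± 35.8 and 361 ± 38.6 CPM in KEAP1 KO #2. Gsta3 went from 0.0949 to 169 CPM (log2FC = 9.82 ± 0.35, adjusted p = 1.60e-09). These paralogs are close in sequence, so reads may have been split among them. Krt76, a keratin of stratified oral epithelium, was at 0.0757, 0.0987 and 0.114 CPM across the LL2 WT samples against 62.9, 61.4 and 43.1 CPM in those of the clone (log2FC = 8.14 ± 0.25, adjusted p = 4.63e-10). Every sample of the clone was far above every sample of LL2 WT. Sprr1b, a cornified envelope protein of squamous epithelium, was listed at 0 in LL2 WT and was at 24.9, 27.3 and 7.19 CPM in KEAP1 KO #2, with sample 3 the lowest (adjusted p = 4.04e-06).

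Selp encodes P-selectin, the adhesion receptor by which endothelium and platelets capture leukocytes. It was at 0.272, 0.220 and 0.0949 CPM across the LL2 WT samples against 49.9, 50.6 and 62.7 CPM in those of KEAP1 KO #2 (log2FC = 7.57 ± 0.37, adjusted p = 1.75e-08). Prl2c2, the prolactin-family hormone proliferin, was at 1.04, 6.76 and 0.502 CPM across the LL2 WT samples against 290.4, 292 and 94.9 CPM in those of the clone (log2FC = 6.90 ± 0.90, adjusted p = 9.80e-05). Its samples varied widely within both lines without overlapping, and its family holds near-identical copies, so the gene assignment is uncertain. Il7, a growth factor for lymphocytes, was at or under 0.1 CPM in each LL2 WT sample and at 13.7, 12.25 and 9.92 CPM in the clone (at least 119.5-fold higher, adjusted p = 2.41e-09). Aldh3a1, an aldehyde dehydrogenase, went from 0.0762 to 20.5 CPM (log2FC = 6.83 ± 0.41, adjusted p = 1.44e-07).

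Among genes that passed the test, the 10 largest increases in absolute level were led by Hsp90aa1, the stress-inducible cytosolic chaperone, which was at 1525, 1619 and 911 CPM across the LL2 WT samples against 3382, 3352 and 2719 CPM in those of KEAP1 KO #2 (log2FC = 1.26 ± 0.20, adjusted p = 0.000435). Esd, an esterase that completes glutathione-dependent formaldehyde oxidation, rose from 648 to 2010 CPM (log2FC = 1.63 ± 0.11, adjusted p = 3.21e-07). The mitochondrially encoded complex I subunit gene mt-Nd3 rose from 576 to 1668 CPM (log2FC = 1.53 ± 0.18, adjusted p = 4.66e-05). Akr1b3, aldose reductase, rose from 253 to 998 CPM (log2FC = 2.08 ± 0.40, adjusted p = 0.00162), and Odc1, the first enzyme of polyamine synthesis, from 426 to 1146 CPM (log2FC = 1.54 ± 0.40, adjusted p = 0.0114). In Akr1b3 and Odc1 LL2 WT sample 3 was the lowest of its line and sample 3 of the clone the lowest of the clone. Pgrmc1, a haem-binding membrane protein, rose from 99.4 to 576 CPM (log2FC = 2.52 ± 0.16, adjusted p = 2.26e-07). The other 4 were Gsta4 (31.1 to 619.8 CPM), the glutathione synthesis subunit Gclm (58.7 to 517 CPM), thioredoxin reductase Txnrd1 (157 to 612 CPM) and the lysosomal protease Ctsb (446 to 899.5 CPM). When single samples were left out, the call was lost in Hsp90aa1 without LL2 WT sample 3 (log2FC 0.997, adjusted p 0.000636) and in Ctsb without LL2 WT sample 2 or KEAP1 KO #2 sample 1 (log2FC 0.95 to 0.98, adjusted p 1.74e-05 to 4.11e-05). Larger differences in level were found among genes that did not pass, of which Klf10, named here after its values were seen, had the largest, with means of 10361 CPM in LL2 WT and 20008 CPM in the clone (log2FC = 1.12, adjusted p = 0.0582).

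The counts of each gene list below stand beside 5.94% risen and 7.75% fallen over all genes tested. Of 34 tested genes of a list of NRF2-regulated redox and detoxification genes, 21 rose and 0 fell by the limma test (median log2FC 1.37). Of the 21, 19 rose in all 3 KEAP1 KO clones. The other 13 genes were not called, and 3 of the list were lower at an unadjusted p under 0.05. Beyond the transferases, Mgst1, a microsomal glutathione transferase, was at 5.09, 4.82 and 7.11 CPM across the LL2 WT samples against 198, 212 and 195 CPM in those of the clone (log2FC = 5.15 ± 0.20, adjusted p = 2.85e-09), and Slc7a11, the cystine importer that feeds glutathione synthesis, rose from 4.26 to 52.5 CPM (log2FC = 3.75 ± 0.43, adjusted p = 3.12e-05). Promoters of 4 such genes and of Krt76 are shown because each holds the core of the antioxidant response element, TGACNNNGC, on one of its strands, between 250 bases before and 50 bases after the annotated start (RefSeq, GRCm38.p6, written along the gene's strand). The matched bases are in capitals.
Gclm (chr3:122245307-122245606, plus strand): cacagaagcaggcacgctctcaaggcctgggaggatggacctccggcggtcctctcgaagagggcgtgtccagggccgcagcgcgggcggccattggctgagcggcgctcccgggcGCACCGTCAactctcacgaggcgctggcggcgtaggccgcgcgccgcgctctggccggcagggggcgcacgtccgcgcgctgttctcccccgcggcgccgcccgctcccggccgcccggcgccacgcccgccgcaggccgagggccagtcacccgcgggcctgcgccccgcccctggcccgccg
Txnrd1 (chr10:82858956-82859255, plus strand): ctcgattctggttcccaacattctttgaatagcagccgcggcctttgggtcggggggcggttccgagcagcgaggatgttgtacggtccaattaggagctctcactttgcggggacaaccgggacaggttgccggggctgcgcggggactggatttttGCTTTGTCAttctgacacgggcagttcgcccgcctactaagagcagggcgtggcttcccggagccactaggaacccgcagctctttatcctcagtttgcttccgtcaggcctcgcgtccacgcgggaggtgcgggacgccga
Gsta3 (chr1:21240335-21240634, plus strand): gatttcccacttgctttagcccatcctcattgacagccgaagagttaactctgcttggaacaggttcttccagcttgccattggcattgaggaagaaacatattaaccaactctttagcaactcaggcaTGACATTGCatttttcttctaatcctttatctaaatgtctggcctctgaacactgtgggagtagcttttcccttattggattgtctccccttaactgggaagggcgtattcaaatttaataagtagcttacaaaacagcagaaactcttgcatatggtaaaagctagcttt
Mgst1 (chr6:138140277-138140576, plus strand): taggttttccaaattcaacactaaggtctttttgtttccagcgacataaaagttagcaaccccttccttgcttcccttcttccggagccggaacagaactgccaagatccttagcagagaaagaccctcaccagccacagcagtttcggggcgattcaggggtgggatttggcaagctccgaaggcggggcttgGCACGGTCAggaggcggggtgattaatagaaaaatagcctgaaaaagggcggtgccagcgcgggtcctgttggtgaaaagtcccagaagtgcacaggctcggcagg
Krt76 (chr15:101892871-101893170, minus strand): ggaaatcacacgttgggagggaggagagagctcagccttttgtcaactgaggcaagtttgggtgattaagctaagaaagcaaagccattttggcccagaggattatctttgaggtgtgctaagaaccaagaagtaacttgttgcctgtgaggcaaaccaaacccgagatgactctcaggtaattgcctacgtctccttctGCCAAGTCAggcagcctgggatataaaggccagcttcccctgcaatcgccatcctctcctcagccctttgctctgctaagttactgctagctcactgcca

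The match read along the gene in Gsta3 and on the opposite strand in Gclm, Txnrd1, Mgst1 and Krt76. It began 134 bases before the start in Gclm, 92 in Txnrd1, 121 in Gsta3, 56 in Mgst1 and 50 in Krt76. Of all 27025 genes with such a window, 13.99% held the motif, and of the 10126 tested genes with a window, 16.7% did. A comparison of such shares between gene groups is void, since only 10126 of the 14652 tested genes had a window, and a match in these letters is not evidence of binding.

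The genes with the largest decreases included collagen and other matrix genes, the Wnt antagonists Dkk2 and Frzb, Cavin2 of caveolae, the lactate dehydrogenase gene Ldhb and the teneurin gene Tenm4. Dkk2, a secreted Wnt antagonist, was at 78.8, 55.6 and 140.3 CPM across the LL2 WT samples against 0.220, 0.197 and 0.521 CPM in those of KEAP1 KO #2 (log2FC = -7.77 ± 0.52, adjusted p = 2.97e-07). Col3a1, the chain of collagen III, was at 436, 309.7 and 563 CPM across the LL2 WT samples against 2.96, 2.29 and 6.89 CPM in those of the clone (log2FC = -6.84 ± 0.55, adjusted p = 1.56e-06). In both genes every sample of the clone lay far below every LL2 WT sample. The 3 tested chains of beaded-filament collagen VI fell together. Col6a1 went from 41.5 to 0.514 CPM (log2FC = -6.16 ± 0.68, adjusted p = 2.52e-05), Col6a2 from 18.9 to 0.131 CPM (log2FC = -6.36 ± 0.52, adjusted p = 1.94e-06) and Col6a3 from 8.99 to 0.178 CPM (log2FC = -5.22 ± 0.86, adjusted p = 0.000557). Thbs1, the matricellular protein thrombospondin, was at 12.8, 14.5 and 37.1 CPM across the LL2 WT samples against 0.107, 0.148 and 0.318 CPM in those of the clone (log2FC = -6.11 ± 0.58, adjusted p = 7.33e-06).

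Of 21 tested collagen genes 8 fell and 1 rose, and of 33 matrix glycoprotein and proteoglycan genes 17 fell and 2 rose (median log2FC -1.23). Fn1, fibronectin, was at 223, 119 and 367 CPM across the LL2 WT samples against 14.3, 13.6 and 31.7 CPM in those of KEAP1 KO #2 (log2FC = -3.53 ± 0.56, adjusted p = 0.000435). Tnc, tenascin-C, fell from 3.45 to 0.0379 CPM (at least 34.5-fold lower, adjusted p = 0.000216) and Fbln5, an elastic fibre protein, from 3.66 to 0.0377 CPM (at least 36.6-fold lower, adjusted p = 1.81e-06). Spp1, osteopontin, fell from 1402 to 525 CPM (log2FC = -1.39 ± 0.36, adjusted p = 0.01002). Among matrix proteases and their inhibitors, 5 of 29 rose and 8 fell (median log2FC -0.32). Plau, the urokinase plasminogen activator, fell from 211 to 24.4 CPM (log2FC = -2.90 ± 0.49, adjusted p = 0.000678) and Adamts9 from 2.02 to 0.108 CPM (log2FC = -3.34 ± 0.49, adjusted p = 0.000223), whereas Mmp10, a stromelysin, rose from 1.85 to 16.6 CPM (log2FC = 3.15 ± 0.38, adjusted p = 4.80e-05) and Adam8, a membrane metalloprotease of activated leukocytes, from 0.714 to 6.24 CPM (log2FC = 2.81 ± 0.47, adjusted p = 0.000659).

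Of 14 tested transcription factors and markers of epithelial-mesenchymal transition, 6 fell and 1 rose. Snai2, a repressor of epithelial genes, was at 37.8, 33.4 and 42.6 CPM across the LL2 WT samples against 1.67, 2.09 and 3.15 CPM in those of KEAP1 KO #2 (log2FC = -4.02 ± 0.23, adjusted p = 8.76e-08). Vim, the mesenchymal intermediate filament vimentin and the largest decrease in absolute level among genes that passed the test, was at 3994, 3447 and 5427 CPM and 1612, 1534 and 1896 CPM (log2FC = -1.33 ± 0.18, adjusted p = 0.000107). Grhl2, a factor that maintains epithelial genes, rose from 0.331 to 2.36 CPM (log2FC = 2.54 ± 0.30, adjusted p = 4.30e-05). The defining epithelial genes Cdh1 and Epcam were under 0.1 CPM in all 6 samples (Cdh1 encodes E-cadherin). The junction and keratin list held 2 genes that rose and 2 that fell of 17. Tjp1, a tight junction scaffold, fell from 81.8 to 39.1 CPM (log2FC = -1.08 ± 0.25, adjusted p = 0.00508) and Jup, plakoglobin, from 8.44 to 0.995 CPM (log2FC = -3.09 ± 0.52, adjusted p = 0.000678). Among cadherins 4 of 13 rose and 4 fell (median log2FC -0.03), among integrins 2 of 19 rose and 2 fell (median log2FC -0.27) and among contractile genes 2 of 18 rose and 3 fell (median log2FC 0.24). Itgb7, a leukocyte integrin chain, rose from 125 to 385 CPM (log2FC = 1.66 ± 0.20, adjusted p = 5.39e-05), and Myh10, a non-muscle myosin heavy chain, fell from 19.9 to 2.06 CPM (log2FC = -3.22 ± 0.24, adjusted p = 8.72e-07). With 1 sample left out, the call was lost in Tjp1 without LL2 WT sample 1 or KEAP1 KO #2 sample 1 or 2 (log2FC -0.99 to -0.94, adjusted p 0.0254 to 0.0266).

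Further large decreases fell outside the lists. Cavin2, a coat protein of caveolae, was at 233, 209 and 299 CPM across the LL2 WT samples against 2.62, 2.34 and 9.31 CPM in those of the clone (log2FC = -5.94 ± 0.53, adjusted p = 3.75e-06), and Cav1, the main structural protein of caveolae, fell from 344 to 121 CPM (log2FC = -1.47 ± 0.28, adjusted p = 0.00156). Tenm4, a teneurin adhesion receptor, fell from 108 to 2.15 CPM (log2FC = -5.86 ± 0.70, adjusted p = 4.63e-05), and Frzb, a secreted decoy for Wnt ligands, from 18.04 to 0.173 CPM (log2FC = -5.84 ± 0.50, adjusted p = 2.65e-06). Serpinf1, which encodes the anti-angiogenic factor PEDF, was at 465, 351 and 545 CPM across the LL2 WT samples against 25.9, 29.7 and 40.9 CPM in those of the clone (log2FC = -3.82 ± 0.21, adjusted p = 4.79e-08). Clu, the secreted chaperone clusterin, fell from 314 to 18.1 CPM (log2FC = -4.10 ± 0.42, adjusted p = 1.41e-05), H1f0, a linker histone of slowly dividing cells, from 379 to 87.3 CPM (log2FC = -2.28 ± 0.46, adjusted p = 0.00251), and Serpinh1, the collagen chaperone of the endoplasmic reticulum, from 474 to 218 CPM (log2FC = -1.12 ± 0.12, adjusted p = 2.58e-05). The rule also named 2 ribosomal protein pseudogenes, Rps13-ps1 (66.7 to 1.04 CPM) and Rpl17-ps8 (462 to 234 CPM), whose reads cannot be separated safely from those of the parent genes. The call did not hold in Rpl17-ps8 without LL2 WT sample 3 or KEAP1 KO #2 sample 2 (log2FC -0.84 to -0.75, adjusted p 0.0670 to 0.0820).

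**Figure D2:**
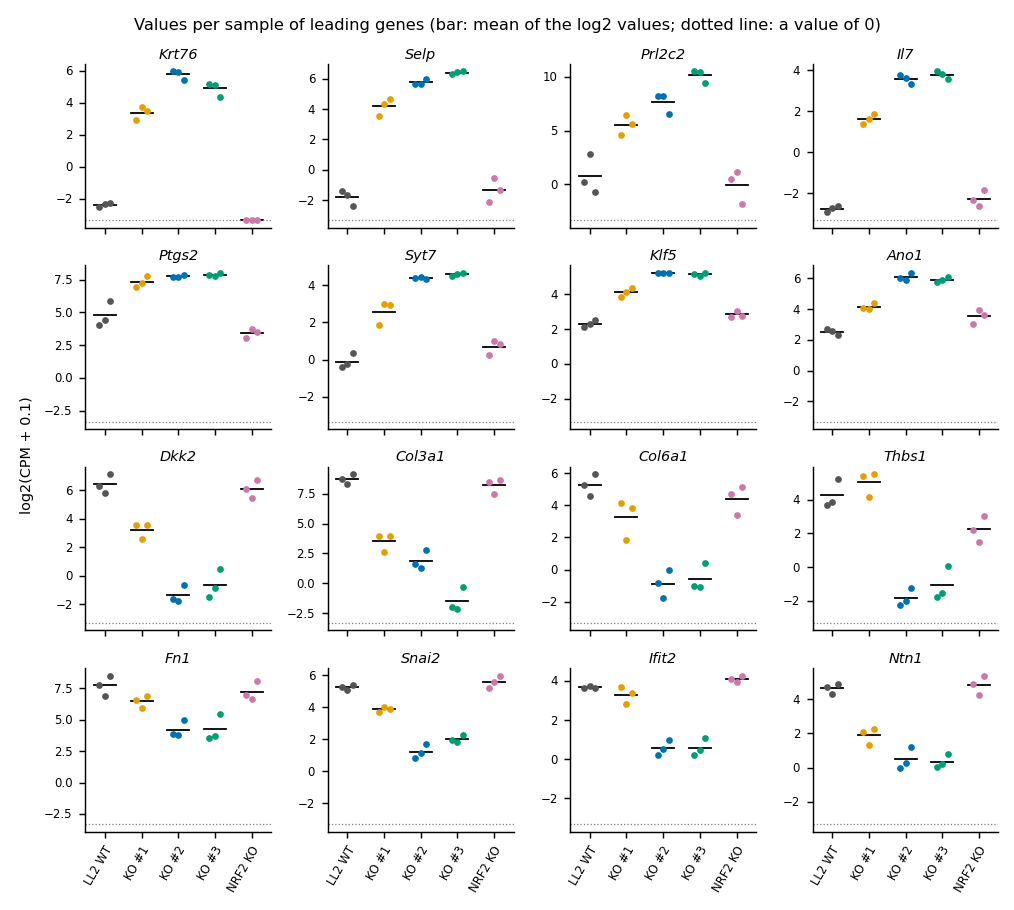
Each panel shows 1 gene, with log2(CPM + 0.1) on the y axis, the 5 lines on the x axis, 1 point per sample and a bar at the mean of the log2 values, and the dotted line marks a value of 0. KEAP1 KO #2 lies above LL2 WT without overlap in the upper 8 panels and below it in the lower 8, and in Col6a1, Thbs1 and Ifit2 the samples of KEAP1 KO #1 lie far above those of #2 and #3.

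Among the Wnt pathway genes that passed the test, most fell. Of 28 tested, 13 fell and 2 rose (median log2FC -0.96). The ligands Wnt7b and Wnt5a fell, from 43.0 to 8.67 CPM (log2FC = -2.38 ± 0.29, adjusted p = 5.05e-05) and from 4.92 to 0.326 CPM (log2FC = -3.64 ± 0.54, adjusted p = 0.000254), as did Ror2, a Wnt5a receptor, from 3.02 to 0.310 CPM (log2FC = -2.97 ± 0.33, adjusted p = 2.44e-05). Together with the antagonists Dkk2 and Frzb above, both activating and inhibitory members fell. Among TGF-beta and BMP genes 3 of 30 rose and 11 fell (median log2FC -0.23). The ligands Bmp4 and Bmp2 fell, from 4.02 to 0.0966 CPM (log2FC = -4.22 ± 0.59, adjusted p = 0.000173) and from 2.07 to 0.0597 CPM (log2FC = -3.70 ± 0.42, adjusted p = 3.06e-05), and so did the co-receptor Tgfbr3, from 53.9 to 14.8 CPM (log2FC = -1.84 ± 0.35, adjusted p = 0.00159).

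Growth factor genes moved both ways. In the list of EGF, FGF, PDGF, IGF and HGF ligands and receptors, 6 of 30 rose and 6 fell (median log2FC 0.14). The EGF receptor ligands Areg and Tgfa rose, Areg from 31.2, 32.8 and 43.7 CPM in the LL2 WT samples to 91.2, 92.9 and 108 CPM (log2FC = 1.45 ± 0.19, adjusted p = 0.000102) and Tgfa from 0.935 to 3.62 CPM (log2FC = 1.86 ± 0.29, adjusted p = 0.000404). The receptor gene Egfr itself fell, from 3.69, 4.996 and 6.16 CPM to 0.418, 0.421 and 0.662 CPM (log2FC = -3.07 ± 0.39, adjusted p = 7.28e-05), and the ligand Fgf10 fell from 6.498 to 0.0849 CPM (log2FC = -5.13 ± 0.34, adjusted p = 2.84e-07). Among output and feedback genes of the MAPK cascade 2 of 30 rose and 7 fell (median log2FC -0.34). Spry1, a feedback inhibitor of receptor tyrosine kinases, fell from 5.60 to 0.0299 CPM (at least 56.0-fold lower, adjusted p = 1.07e-05) and the immediate early factor Egr3 from 12.7 to 2.89 CPM (log2FC = -2.26 ± 0.54, adjusted p = 0.00704), whereas the MAPK phosphatases Dusp4 and Dusp1 rose, from 34.2 to 163 CPM (log2FC = 2.25 ± 0.17, adjusted p = 7.46e-07) and from 4.14 to 18.01 CPM (log2FC = 2.16 ± 0.27, adjusted p = 7.92e-05). In the Notch list 3 of 15 rose and 1 fell (median log2FC 0.08). The ligands Dll1 and Jag1 rose, from 0.933 to 6.35 CPM (log2FC = 2.65 ± 0.23, adjusted p = 3.71e-06) and from 1.56 to 3.27 CPM (log2FC = 1.08 ± 0.26, adjusted p = 0.00670), as did the ubiquitin ligase gene Dtx4 (10.103 to 35.3 CPM), and Hes6 fell (3.09 to 0.946 CPM). The call was not kept in Jag1 without LL2 WT sample 2 or KEAP1 KO #2 sample 1 (log2FC 0.86 to 0.9997, adjusted p 0.0244 to 0.0321).

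Genes that shape G protein and cyclic AMP signalling fell where they changed. Of 23 tested RGS, adenylyl cyclase and phosphodiesterase genes, 7 fell and 0 rose by the limma test, while 3 were higher at an unadjusted p under 0.05. The cyclic AMP phosphodiesterase Pde4b fell from 9.51 to 0.0859 CPM (log2FC = -5.68 ± 0.43, adjusted p = 9.10e-07), Pde3b from 9.30 to 0.809 CPM (log2FC = -3.37 ± 0.30, adjusted p = 4.13e-06), the adenylyl cyclase Adcy7 from 18.8 to 3.61 CPM (log2FC = -2.37 ± 0.25, adjusted p = 1.43e-05) and the GTPase activator Rgs16 from 7.84 to 0.0215 CPM (at least 78.4-fold lower, adjusted p = 5.93e-05). Guidance cues and their receptors moved both ways, and in the list of ephrins, semaphorins, netrins, Slits and Robos 7 of 46 rose and 12 fell (median log2FC 0.07). Ntn1, netrin, was at 26.0, 19.8 and 29.5 CPM across the LL2 WT samples against 0.895, 1.09 and 2.23 CPM in those of the clone (log2FC = -4.15 ± 0.37, adjusted p = 4.35e-06), and its receptor gene Unc5a fell from 5.48 to 0.363 CPM (log2FC = -3.66 ± 0.32, adjusted p = 3.70e-06). Sema3f fell from 5.28 to 0.108 CPM (log2FC = -4.83 ± 0.46, adjusted p = 7.72e-06), but Sema3c, another secreted semaphorin, rose from 0.302 to 9.86 CPM (log2FC = 4.63 ± 0.21, adjusted p = 7.74e-09).

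In 3 of 5 immune lists more genes fell than rose, which was also the case over all genes tested (7.75% fell and 5.94% rose). Of 34 tested interferon-stimulated genes 12 fell and 4 rose (median log2FC -0.87). Ifit2, which binds viral RNA, was at 12.5, 13.5 and 12.16 CPM across the LL2 WT samples against 1.08, 1.33 and 1.89 CPM in those of KEAP1 KO #2 (log2FC = -3.09 ± 0.26, adjusted p = 2.65e-06). Ifi27 fell from 21.5 to 0.856 CPM (log2FC = -4.74 ± 0.56, adjusted p = 4.11e-05), Rtp4 from 2.92 to 0.213 CPM (log2FC = -3.35 ± 0.49, adjusted p = 0.000229) and the immunoproteasome subunit Psmb8 from 2.06 to 0.275 CPM (log2FC = -2.78 ± 0.74, adjusted p = 0.0123). In the list of MHC class I and antigen presentation genes 1 of 22 rose and 5 fell (median log2FC -0.24). Of these 5, Psmb8 and Psmb9 are also counted among the 12 interferon-stimulated genes that fell. The classical gene H2-K1 was at 12.29, 3.44 and 31.7 CPM across the LL2 WT samples against 1.42, 1.504 and 2.60 CPM in those of the clone (log2FC = -2.58 ± 0.87, adjusted p = 0.0387), and its LL2 WT samples spread widely. The non-classical H2-M3 fell from 7.57 to 1.08 CPM (log2FC = -2.73 ± 0.44, adjusted p = 0.000464). H2 genes share sequence, so their reads may be split. Cd1d1, which presents lipids to NKT cells, rose from 2.56 to 6.67 CPM (log2FC = 1.34 ± 0.17, adjusted p = 8.31e-05). When single samples were left out, the call was lost in H2-K1 without LL2 WT sample 1 or 3 or KEAP1 KO #2 sample 1, 2 or 3 (log2FC -2.84 to -1.82, adjusted p 0.050001 to 0.161) and in Psmb8 without KEAP1 KO #2 sample 1 or 2 (log2FC -2.54 to -2.36, adjusted p 0.05002 to 0.0581).

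In the complement and coagulation list 3 of 28 rose and 11 fell (median log2FC -0.29). The classical pathway proteases C1s1 and C1ra fell, from 11.4 to 0.810 CPM (log2FC = -3.89 ± 0.94, adjusted p = 0.00720) and from 17.5 to 2.12 CPM (log2FC = -3.07 ± 0.47, adjusted p = 0.000317), and Masp1 of the lectin pathway from 28.3 to 2.48 CPM (log2FC = -3.33 ± 0.47, adjusted p = 0.000179), while C3, the component common to all pathways, rose from 0.258 to 4.10 CPM (log2FC = 3.67 ± 0.52, adjusted p = 0.000179). Among cytokine genes 4 of 18 rose and 4 fell (median log2FC -0.06). Clcf1, a ligand of the ciliary neurotrophic factor receptor, rose from 5.09 to 18.8 CPM (log2FC = 1.87 ± 0.15, adjusted p = 1.32e-06), and the alarmin Il33 fell from 20.9 to 0.288 CPM (log2FC = -5.11 ± 1.07, adjusted p = 0.00308), as did Tnfsf12, the ligand TWEAK, from 9.29 to 3.88 CPM (log2FC = -1.24 ± 0.27, adjusted p = 0.00383). Of 14 tested chemokine genes 2 rose and 0 fell by the limma test, with 2 lower at an unadjusted p under 0.05.

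In lipid metabolism, 3 of 14 tested genes of the prostaglandin list rose and 0 fell by the limma test, while 5 were higher and 3 lower at an unadjusted p under 0.05. Ptgs2, which encodes the inducible cyclooxygenase COX-2, was at 16.4, 21.2 and 58.9 CPM across the LL2 WT samples against 209, 210 and 232 CPM in those of KEAP1 KO #2 (log2FC = 2.98 ± 0.37, adjusted p = 6.05e-05). Pla2g4a, the cytosolic phospholipase that releases arachidonic acid, rose from 63.8 to 189 CPM (log2FC = 1.56 ± 0.12, adjusted p = 1.01e-06), and the prostacyclin receptor gene Ptgir from 0.0312 to 2.35 CPM (at least 23.5-fold higher, adjusted p = 0.000361). Among genes of fatty acid uptake, storage and oxidation 6 of 32 rose and 1 fell (median log2FC 0.22). Lpl, lipoprotein lipase, rose from 4.54 to 24.9 CPM (log2FC = 2.44 ± 0.23, adjusted p = 6.89e-06), and the regulators Ppard and Ppargc1a rose from 23.4 to 77.1 CPM (log2FC = 1.7497 ± 0.21, adjusted p = 4.47e-05) and from 0.697 to 2.31 CPM (log2FC = 1.61 ± 0.31, adjusted p = 0.00159). In cholesterol and fatty acid synthesis 3 of 40 rose (7.5%) and 6 fell (15%), against 5.94% and 7.75% of all genes (median log2FC -0.24 for the list). The desaturases Fads2 and Fads3 fell, from 34.1 to 3.198 CPM (log2FC = -3.43 ± 0.26, adjusted p = 9.18e-07) and from 8.64 to 1.69 CPM (log2FC = -2.31 ± 0.35, adjusted p = 0.000271), and Insig1, a sterol sensor, from 85.3 to 29.7 CPM (log2FC = -1.52 ± 0.21, adjusted p = 0.000134), while the elongase gene Elovl7 rose from 3.34 to 10.8 CPM (log2FC = 1.70 ± 0.19, adjusted p = 3.22e-05).

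Of 44 glycolysis and hypoxia-responsive genes 5 fell (11.4%, against 7.75% of all genes) and 0 rose by the limma test, with 1 higher at an unadjusted p under 0.05. Ldhb, a lactate dehydrogenase subunit, was at 8.90, 9.61 and 9.35 CPM across the LL2 WT samples against 0, 0.0587 and 0.123 CPM in those of the clone (log2FC = -5.94 ± 0.46, adjusted p = 1.16e-06), and the lactate exporter Slc16a3 fell from 33.5 to 3.81 CPM (log2FC = -3.57 ± 1.17, adjusted p = 0.0338). The peptide hormone gene Adm fell with a wide error (57.4 to 3.26 CPM, log2FC = -4.27 ± 1.53, adjusted p = 0.0483), and the aldolase gene Aldoc fell from 3.84 to 0.335 CPM (log2FC = -2.65 ± 0.84, adjusted p = 0.0283). In the list of ATF4 targets and amino acid metabolism 3 of 43 rose and 8 fell (median log2FC -0.35). Pycr1 of proline synthesis, Gpt2 of alanine metabolism and the factor Atf5 fell (15.98 to 3.74, 51.0 to 15.4 and 53.4 to 16.3 CPM). With 1 sample left out, the call was lost in Adm without LL2 WT sample 1 or 3 or KEAP1 KO #2 sample 1 or 2 (log2FC -4.20 to -3.50, adjusted p 0.108 to 0.159), Aldoc without LL2 WT sample 1 or 3 or KEAP1 KO #2 sample 1 or 2 (log2FC -2.66 to -1.84, adjusted p 0.0674 to 0.124), Slc16a3 without LL2 WT sample 1 or 3 or KEAP1 KO #2 sample 1 or 2 (log2FC -3.43 to -3.02, adjusted p 0.0885 to 0.125), Pycr1 without LL2 WT sample 1 or 3 or KEAP1 KO #2 sample 1 or 2 (log2FC -1.89 to -1.41, adjusted p 0.0626 to 0.0980) and in Gpt2 without LL2 WT sample 1 or 3 or KEAP1 KO #2 sample 1 or 2 (log2FC -1.52 to -1.30, adjusted p 0.0593 to 0.0760).

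Among drug and solute transporters 10 of 43 rose and 4 fell (median log2FC 0.55). The organic cation carrier Slc22a4 rose from 4.30 to 26.7 CPM (log2FC = 2.66 ± 0.23, adjusted p = 3.48e-06) and the exporters Abcc4 and Abcb4 from 20.8 to 90.2 CPM (log2FC = 2.11 ± 0.09, adjusted p = 6.37e-09) and from 0.273 to 2.09 CPM (log2FC = 2.56 ± 0.23, adjusted p = 4.88e-06), while Slc43a3, a purine nucleobase carrier, fell from 13.8 to 0.318 CPM (log2FC = -5.33 ± 0.49, adjusted p = 4.88e-06). Of 31 cytochrome P450 and retinoid genes 5 rose and 5 fell. Cyp1a1, the classical target of the aryl hydrocarbon receptor, rose from 0.0129 to 7.26 CPM (at least 72.6-fold higher, adjusted p = 7.74e-09) and Cyp26b1, which degrades retinoic acid, from 0.264 to 2.57 CPM (log2FC = 2.93 ± 0.37, adjusted p = 7.25e-05). Cyp4v3 fell from 4.11 to 0.501 CPM (log2FC = -2.78 ± 0.45, adjusted p = 0.000451) and Dhrs3 from 7.09 to 1.32 CPM (log2FC = -2.43 ± 0.84, adjusted p = 0.0416). The call did not hold in Dhrs3 without LL2 WT sample 1 or 3 or KEAP1 KO #2 sample 1 or 2 (log2FC -2.46 to -1.79, adjusted p 0.0887 to 0.169).

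Of the heat shock and endoplasmic reticulum chaperones 6 of 37 rose and 2 fell (median log2FC 0.29). Beside Hsp90aa1, the list's increases included Hspa1b (2.05 to 7.95 CPM), which shares sequence with Hspa1a, Dnajb4 (34.7 to 98.7 CPM), Cryab (0.663 to 2.07 CPM) and Hsph1 (143 to 326 CPM). Of 32 proteasome subunit genes 3 passed the test, all upwards, and the median log2FC of the list was 0.36. They were Psmd5 (from 61.3 to 147 CPM, log2FC = 1.28 ± 0.19, adjusted p = 0.000213), Psmd11 (from 106 to 222 CPM, log2FC = 1.08 ± 0.15, adjusted p = 0.000160) and Psma5 (from 178 to 354 CPM, log2FC = 1.01 ± 0.22, adjusted p = 0.00344). Of the lysosome and autophagy genes 5 of 47 rose (10.6%) and 6 fell (12.8%), against 5.94% and 7.75% of all genes (median log2FC 0.23 for the list). The lysosomal proteases Ctsd and Ctsb rose, Ctsd from 182 to 505 CPM (log2FC = 1.47 ± 0.09, adjusted p = 1.44e-07), together with Atg9b from 1.17 to 3.74 CPM (log2FC = 1.56 ± 0.51, adjusted p = 0.0341), while Naglu of heparan sulfate breakdown fell from 20.1 to 5.45 CPM (log2FC = -1.90 ± 0.53, adjusted p = 0.0157) and Map1lc3a, an LC3 protein of autophagosomes, from 21.1 to 6.91 CPM (log2FC = -1.59 ± 0.35, adjusted p = 0.00434). The call was not kept in Cryab without LL2 WT sample 1 or KEAP1 KO #2 sample 1 or 2 (log2FC 1.22 to 1.51, adjusted p 0.0720 to 0.0921), Hsph1 without LL2 WT sample 3 (log2FC 0.93, adjusted p 0.0202), Psmd11 without LL2 WT sample 3 (log2FC 0.91, adjusted p 0.000400), Psma5 without LL2 WT sample 3 or KEAP1 KO #2 sample 1 or 2 (log2FC 0.80 to 0.94, adjusted p 0.0143 to 0.0185), Atg9b without LL2 WT sample 1 or 2 or KEAP1 KO #2 sample 1 or 3 (log2FC 1.17 to 1.73, adjusted p 0.0544 to 0.120) and in Naglu without LL2 WT sample 1 or 3 or KEAP1 KO #2 sample 1 or 2 (log2FC -1.82 to -1.57, adjusted p 0.0504 to 0.0668).

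Core growth genes rarely passed the test. Of 52 cytosolic ribosomal protein genes 0 were called by limma (median log2FC -0.42; 42 lower and 0 higher at an unadjusted p under 0.05), and of 48 oxidative phosphorylation genes 0 were called (7 lower and 8 higher at that level). In the cell cycle and DNA replication list 2 of 55 rose and 1 fell, namely Rrm2 of nucleotide synthesis (from 249.8 to 613 CPM, log2FC = 1.41 ± 0.29, adjusted p = 0.00251), the factor E2f2 (from 5.18 to 14.7 CPM, log2FC = 1.52 ± 0.17, adjusted p = 3.15e-05) and the mitotic cyclin Ccnb2 (from 149.9 to 75.5 CPM, log2FC = -1.001 ± 0.19, adjusted p = 0.00181). Among p53 targets and CDK inhibitors 5 of 33 rose and 4 fell (median log2FC 0.48). The polo-like kinase Plk2 rose from 9.94 to 41.2 CPM (log2FC = 2.13 ± 0.29, adjusted p = 0.000132) and Trp53inp1 from 10.9 to 32.3 CPM (log2FC = 1.67 ± 0.41, adjusted p = 0.00727), while the CDK inhibitor Cdkn2c fell from 36.5 to 9.88 CPM (log2FC = -1.88 ± 0.16, adjusted p = 2.39e-06) and Sesn1 from 14.7 to 4.08 CPM (log2FC = -1.76 ± 0.31, adjusted p = 0.000822). In the apoptosis list 1 of 32 rose and 5 fell (median log2FC -0.16). The anti-apoptotic gene Bcl2 fell from 17.6 to 3.91 CPM (log2FC = -2.17 ± 0.27, adjusted p = 6.64e-05), the pore-forming Gsdmd from 9.09 to 2.02 CPM (log2FC = -2.38 ± 0.49, adjusted p = 0.00276) and Casp12 from 3.77 to 0.695 CPM (log2FC = -2.15 ± 0.47, adjusted p = 0.00411), and Casp1 of the inflammasome rose from 1.497 to 5.05 CPM (log2FC = 1.71 ± 0.29, adjusted p = 0.000684). When single samples were left out, the call was lost in Ccnb2 without LL2 WT sample 1 or KEAP1 KO #2 sample 1 or 2 (log2FC -0.90 to -0.86, adjusted p 0.0107 to 0.0117).

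Genes known from neurons and epithelia moved both ways. In the synaptic and neuronal adhesion list 9 of 32 rose and 7 fell (median log2FC 0.12). Syt7, a calcium sensor of vesicle fusion, was at 0.653, 0.743 and 1.16 CPM across the LL2 WT samples against 20.5, 21.5 and 20.2 CPM in those of KEAP1 KO #2 (log2FC = 4.49 ± 0.29, adjusted p = 2.19e-07). Uchl1, a neuronal deubiquitinase, rose from 3.26 to 35.8 CPM (log2FC = 3.47 ± 0.26, adjusted p = 8.72e-07), Nrcam from 0.0352 to 2.81 CPM (at least 28.1-fold higher, adjusted p = 1.16e-06) and Flrt3 from 0.410 to 4.03 CPM (log2FC = 3.07 ± 0.34, adjusted p = 2.39e-05). Of 33 ion channel genes 3 rose and 6 fell. Ano1, a calcium-activated chloride channel of epithelia, was at 6.48, 5.84 and 4.83 CPM across the LL2 WT samples against 66.5, 60.5 and 82.8 CPM in those of the clone (log2FC = 3.59 ± 0.21, adjusted p = 9.18e-08), the sodium channel Scn8a rose from 6.54 to 25.4 CPM (log2FC = 1.94 ± 0.16, adjusted p = 1.89e-06), and the sodium channel Scn9a and the potassium channel Kcnk1 fell, from 3.40 to 0.343 CPM (log2FC = -3.09 ± 0.44, adjusted p = 0.000185) and from 2.45 to 0.0151 CPM (at least 24.5-fold lower, adjusted p = 1.32e-06).

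Among Sox, Fox, Gata, Klf and T-box factors 6 of 37 rose and 6 fell (median log2FC -0.14). Klf5, a factor of proliferating epithelium, was at 4.24, 4.80 and 5.61 CPM across the LL2 WT samples against 37.8, 37.2 and 38.0 CPM in those of KEAP1 KO #2 (log2FC = 2.93 ± 0.15, adjusted p = 2.60e-08). Foxq1 rose from 0.340 to 5.67 CPM (log2FC = 3.84 ± 0.40, adjusted p = 1.63e-05) and Foxa1, a pioneer factor of endodermal epithelium, from 0.368 to 2.28 CPM (log2FC = 2.38 ± 0.32, adjusted p = 0.000111), while Foxf1, a factor of lung mesenchyme, fell from 15.2, 18.5 and 15.4 CPM in the LL2 WT samples to 2.94, 3.57 and 3.19 CPM (log2FC = -2.30 ± 0.13, adjusted p = 8.76e-08). Of 26 Hox genes 5 fell and 0 rose (1 higher at an unadjusted p under 0.05, limma), with Hoxa2 going from 2.22 to 0.814 CPM (log2FC = -1.37 ± 0.36, adjusted p = 0.0116). Of 20 imprinted genes 5 rose and 3 fell. Mest rose from 3.86 to 44.0 CPM (log2FC = 3.50 ± 0.17, adjusted p = 1.73e-08), Phlda2 from 0.605 to 3.08 CPM (log2FC = 2.21 ± 0.40, adjusted p = 0.00111) and Nnat from 1.70 to 4.61 CPM (log2FC = 1.35 ± 0.47, adjusted p = 0.0424), and Ndn fell from 11.6 to 1.96 CPM (log2FC = -2.48 ± 0.18, adjusted p = 5.44e-07). Of 11 germline and cancer-testis genes 1 rose and 1 fell, and of 2 tested genes of a list of Y-linked genes and Xist neither was called. With 1 sample left out, the call was lost in Hoxa2 without KEAP1 KO #2 sample 2 (log2FC -1.21, adjusted p 0.0521) and in Nnat without LL2 WT sample 1 or 2 or KEAP1 KO #2 sample 2 or 3 (log2FC 0.91 to 1.4999, adjusted p 0.0662 to 0.156).

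**Figure D3:**
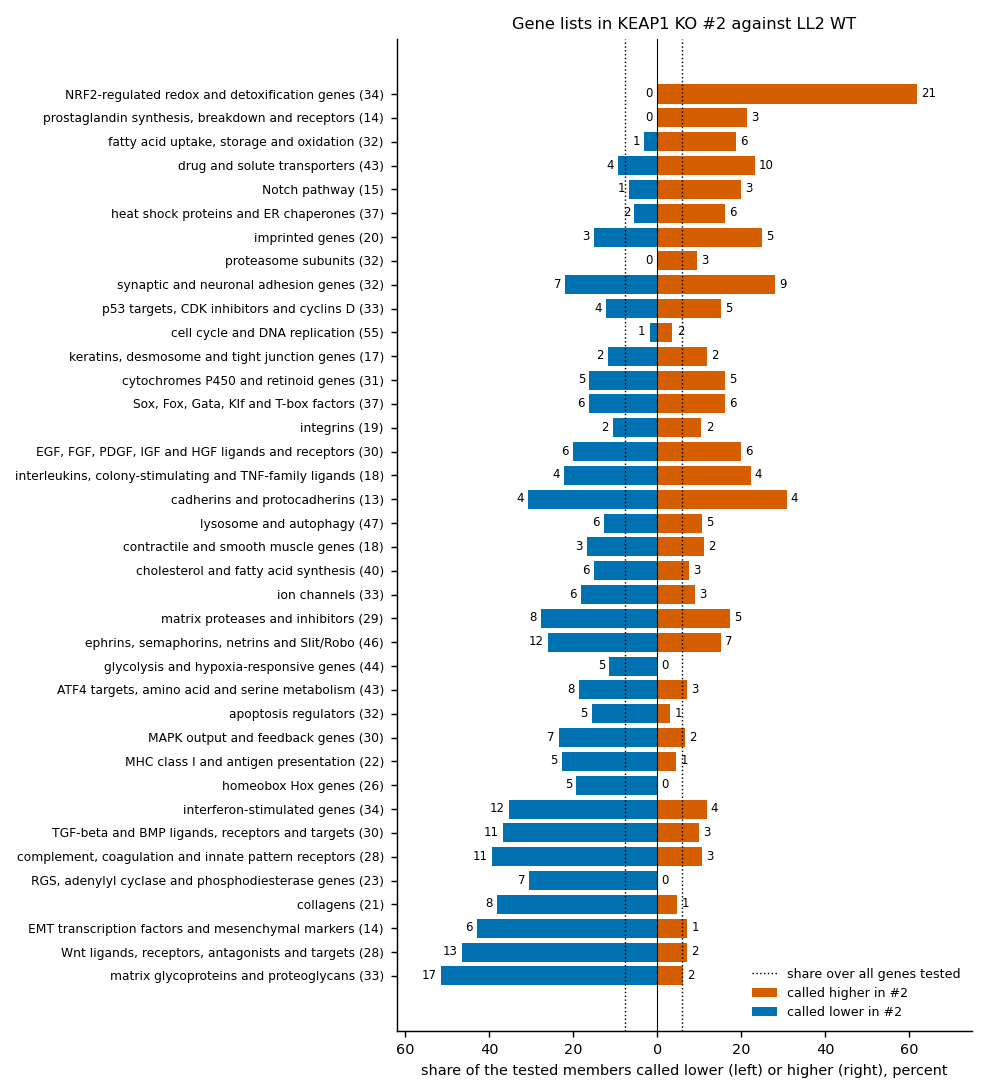
Each row is a gene list with at least 3 called members, with the number tested in brackets. The bars give the percentage of tested members called higher (right) or lower (left) in KEAP1 KO #2 against LL2 WT, the figures at the bar ends are counts of genes, and the dotted lines mark the shares over all genes tested, 5.94% and 7.75%. The NRF2 list reaches farthest to the right with 21 of 34, and matrix glycoproteins farthest to the left with 17 of 33.

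Markers of cells that a lung tumour line could hold beside tumour cells were checked, and their part in the results above was not tested. The 16 leukocyte markers summed to 3.82 to 6.16 CPM in LL2 WT and 15.9 to 28.4 CPM in KEAP1 KO #2, with 2 that rose and 1 that fell. Cd68 (2.85 to 13.8 CPM) and S100a8 (0.437 to 4.68 CPM) rose and Lyz2 (1.13 to 0.0337 CPM) fell. Csf1r (0.161 to 0.532 CPM) and Cd3d (0.173 to 0.431 CPM) were higher in the clone without being called. Adgre1 and Nkg7 were at 0, and Ptprc, Cd3e and Itgam were under 0.15 CPM in all 6 samples. Every other leukocyte marker had a mean of at most 0.158 CPM in both lines, the highest being Cd4 in the clone. The 10 endothelial markers summed to 28.4 to 34.3 CPM in LL2 WT and 29.8 to 40 CPM in KEAP1 KO #2, nearly all from Egfl7 (28.1 and 26.7 CPM, log2FC = -0.08 ± 0.15, adjusted p = 0.702) and Pecam1 (3.08 and 4.94 CPM, log2FC = 0.67 ± 0.24, adjusted p = 0.0512). Vwf rose (0.269 to 1.195 CPM), as did Cdh5, VE-cadherin (0.0227 to 0.819 CPM), and Emcn and Cldn5 were at 0. The 10 fibroblast markers summed to 319 to 585 CPM in LL2 WT and 8.42 to 16.6 CPM in KEAP1 KO #2, and 4 of them fell. Col3a1 made up most of that sum, the other 3 that fell (Col1a1, Col1a2 and Pdgfrb) and Dcn and Lum were under 1 CPM in every sample of both lines, and Pdgfra was at 11.4 and 6.61 CPM (log2FC = -0.68 ± 0.42, adjusted p = 0.239). The 14 lung epithelial markers summed to 604 to 684 CPM in LL2 WT and 562 to 618 CPM in KEAP1 KO #2, mostly from Krt18 (534 and 406 CPM, log2FC = -0.39 ± 0.15, adjusted p = 0.0671) and Krt8 (102 and 172 CPM, log2FC = 0.76 ± 0.13, adjusted p = 0.000971). Of this list 1 rose and 2 fell. Sftpb, a surfactant protein gene, rose from 0.0381 to 0.448 CPM (log2FC = 1.92, adjusted p = 0.00533), and was also called higher in KEAP1 KO #1 and #3. Sftpc, another surfactant gene, reached at most 0.368 CPM in LL2 WT and 0.422 CPM in the clone. Hopx (12.4 to 1.58 CPM) and Napsa (1.44 to 0.158 CPM) fell, Krt19 was at 2.85 and 1.33 CPM (adjusted p = 0.448), and the lineage genes Nkx2-1, Sftpa1 and Scgb1a1 were at 0 or under 0.1 CPM in all 6 samples.

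The changes of KEAP1 KO #2 were then set beside those of the other clones. All 3 comparisons use the same LL2 WT samples, so the sharing of calls is a description. Against LL2 WT, 4.55% of genes rose and 3.99% fell in KEAP1 KO #1, and 6.09% rose and 7.34% fell in KEAP1 KO #3. Of the 870 genes that rose in KEAP1 KO #2, 419 also rose in both other clones, 281 in KEAP1 KO #3 but not #1, 41 in #1 but not #3, and 129 in neither. Of the 1136 that fell, these numbers were 386, 449, 44 and 257. A call in one clone and not in another is no difference between them, and the clones were therefore compared directly. KEAP1 KO #2 was higher than #1 in 262 genes (1.79%) and lower in 409 (2.79%). It was higher than #3 in 33 genes (0.225%) and lower in 38 (0.259%). With the replicate number as a block, the differences from #3 were 55 higher and 80 lower, although a pairing of samples 1 and 2 by number was not shown. With samples 1 and 2 of every line averaged, they were 8 and 11, and those from #1 were 80 and 135. Single samples moved these counts by more than 1.5 times. The genes higher than in #1 numbered 172 without sample 1 of #1, and those lower than in #1 numbered 264 and 270 without sample 1 or 2 of #2. The genes higher than in #3 numbered 18 without sample 1 of #3, and those lower than in #3 numbered 22 to 25 without sample 1 or 2 of #2 or any 1 sample of #3.

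Most of the genes called in KEAP1 KO #2 alone were thus not shown to differ from the other clones. Of the 129 that rose, 17 were also higher than in #1, 4 higher than in #3 and 4 higher than in both. Of the 257 that fell, the numbers were 66, 13 and 12. Among the named genes called in this clone alone were Spp1, Adm, C1s1, H2-K1, Insig1, Dhrs3, Pycr1, Ccnb2, Psmd11, Cd1d1 and Nnat, and for none of these was either direct difference called.

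The genes that separated KEAP1 KO #2 from KEAP1 KO #1 were found in the matrix, Wnt and interferon lists among others. Col6a2 was at 0.131 CPM in KEAP1 KO #2 and 13.01 CPM in #1, a log2 difference of -5.62 ± 0.52 (adjusted p = 3.60e-05). Thbs1 was at 0.191 CPM in KEAP1 KO #2 and 35.3 CPM in #1, a log2 difference of -6.88 ± 0.58 (adjusted p = 1.96e-05), and Frzb at 0.173 CPM in KEAP1 KO #2 and 16.7 CPM in #1, a log2 difference of -5.86 ± 0.50 (adjusted p = 1.96e-05). Fn1, Bmp4 and Ifit2 showed the same order, with Fn1 at 19.9 CPM in KEAP1 KO #2 and 92.1 CPM in #1, a log2 difference of -2.27 ± 0.56 (adjusted p = 0.0206), Bmp4 at 0.0966 CPM in KEAP1 KO #2 and 4.20 CPM in #1, a log2 difference of -4.61 ± 0.59 (adjusted p = 0.000354) and Ifit2 at 1.43 CPM in KEAP1 KO #2 and 9.90 CPM in #1, a log2 difference of -2.70 ± 0.26 (adjusted p = 4.89e-05). None of these 6 genes differed by the test between KEAP1 KO #2 and #3. By list, 8 of the 12 interferon-stimulated genes that fell were also lower than in KEAP1 KO #1, as were 9 of 13 Wnt genes, 5 of 6 mesenchymal genes, 6 of 17 matrix glycoproteins and 3 of 8 collagens. Over all genes, 273 of the 1136 that fell were lower than in #1, and 167 of the 870 that rose were higher. Of the 21 NRF2-list genes that rose, 1 was higher than in #1. Other genes rose in both clones and more in KEAP1 KO #2. Krt76 was at 55.8 CPM in KEAP1 KO #2 and 10.7 CPM in #1, a log2 difference of 2.39 ± 0.25 (adjusted p = 8.85e-05), Sprr1b at 19.8 and 2.46 CPM (log2 difference 2.98 ± 0.66, adjusted p = 0.0118), Il7 at 11.95 and 2.97 CPM (log2 difference 1.98 ± 0.24, adjusted p = 0.000223) and Ano1 at 69.9 and 17.8 CPM (log2 difference 1.97 ± 0.21, adjusted p = 8.19e-05). In Col3a1 the order was different, since KEAP1 KO #2 stood above KEAP1 KO #3 (0.325 CPM, log2 difference 3.38 ± 0.55, adjusted p = 0.00922).

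**Figure D4:**
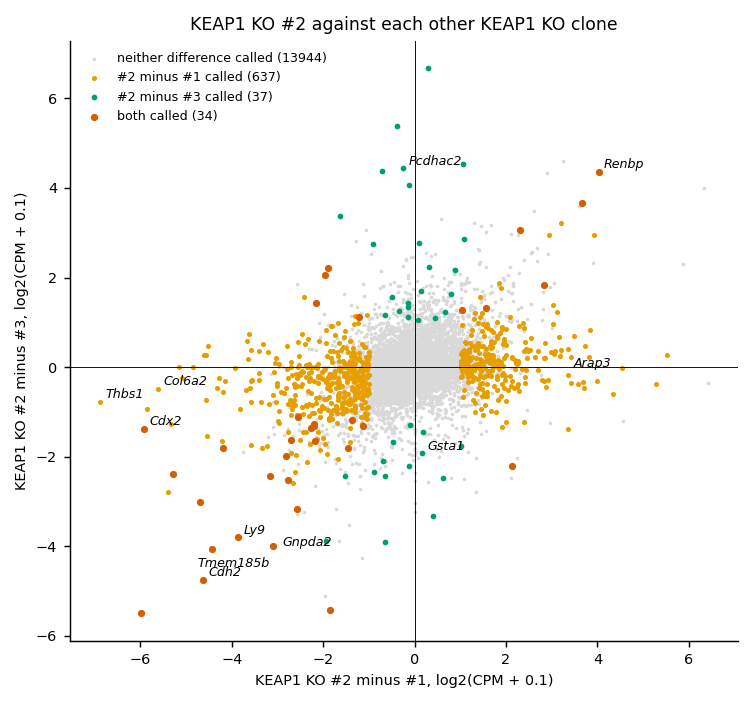
Each point is 1 of 14652 genes, with the log2 difference of KEAP1 KO #2 from #1 on the x axis and from #3 on the y axis, which share the #2 samples. The 34 genes with both differences called are in red, and 29 of them lie in the same direction on both axes, with Cdh2, Tmem185b, Ly9 and Gnpda2 at the lower left and Renbp at the upper right, while the far more numerous differences from #1 alone (637 genes) spread along the x axis.

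In 23 genes KEAP1 KO #2 differed in the same direction from LL2 WT, KEAP1 KO #1 and KEAP1 KO #3, with 5 higher (0.0341% of those tested) and 18 lower (0.123%). Both direct differences between clones were called in the same direction in 29 genes, and those without a like change against LL2 WT are not in this set. Cd36 is among those left out, at 0 in LL2 WT, 2.27 CPM in #1, 0.209 CPM in #2 and 1.36 CPM in #3. Genes said below to differ from both clones are those of the set. In 12 of the 23 neither other clone was called against LL2 WT (3 higher, 9 lower), which is the definition the naming rule used, with a minimum of 2 CPM. The other 11 genes, and Plcl2, Cemip, Lrp2 and the 2 predicted genes, were named after their values were seen. With the replicate number as a block the sets were larger (9 higher and 40 lower). With samples 1 and 2 of every line averaged they held 1 and 7 genes, and without sample 1 of #3 the higher set held 2. Over 25 alternatives, Cdh2, Ly9, Tmem185b, Gnpda2 and both predicted genes stayed in the set in every one. Renbp left it in 1, Fam83g and Ndn in 2, Cdh13 and Pcp4l1 in 3, and Akr1c14, Eya1 and Il15ra in 4. Paqr8 left it in 6, Bpifb4 in 8, Lrp2 in 11, Cdk18 in 13, and Cdx2, Plcl2, Cemip, Bdh2 and Pcdhga10 in 16 to 20.

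Cdh2, which encodes the mesenchymal adhesion molecule N-cadherin, had the lowest adjusted p of these differences. It was at 6.99, 6.15 and 7.04 CPM across the LL2 WT samples. The values were 10.5, 10.9 and 11.1 CPM for #1, 0.221, 0.383 and 0.450 CPM for #2 and 10.98, 11.8 and 12.4 CPM for #3. The clone lay far below all other samples, whereas both other clones lay above LL2 WT, and the log2 differences were -3.95 ± 0.18 (adjusted p = 7.61e-09) from LL2 WT, -4.64 ± 0.18 (adjusted p = 1.80e-08) from #1 and -4.75 ± 0.18 (adjusted p = 1.33e-08) from #3. Ly9, a SLAM-family receptor of lymphocytes, was at 7.53, 6.98 and 7.02 CPM across the LL2 WT samples. The values were 8.38, 7.12 and 7.65 CPM for #1, 0.586, 0.357 and 0.384 CPM for #2 and 7.08, 8.403 and 6.54 CPM for #3, with log2 differences of -3.87 ± 0.23 (adjusted p = 9.97e-07) from #1 and -3.79 ± 0.23 (adjusted p = 1.20e-06) from #3. The NRF2 KO clone was also near 0 for Ly9 (0.0436, 0.109 and 0.0267 CPM), so the low level was not particular to KEAP1 KO #2 among all lines. Tmem185b, a transmembrane protein gene with a close paralog, was at 2.46, 2.57 and 2.102 CPM across the LL2 WT samples. The values were 2.33, 2.64 and 2.12 CPM for #1, 0.0121, 0 and 0.0314 CPM for #2 and 1.98, 1.4796 and 2.01 CPM for #3, with log2 differences of -4.43 ± 0.21 (adjusted p = 1.04e-07) from #1 and -4.06 ± 0.21 (adjusted p = 2.97e-07) from #3. It was at least 23.8-fold lower than in LL2 WT. Gnpda2, a glucosamine-phosphate deaminase, was at 5.36, 4.87 and 5.28 CPM across the LL2 WT samples. The values were 3.37, 1.19 and 1.92 CPM for #1, 0.160, 0.0824 and 0.208 CPM for #2 and 3.64, 3.75 and 3.96 CPM for #3, with log2 differences of -3.09 ± 0.30 (adjusted p = 4.89e-05) from #1 and -3.99 ± 0.30 (adjusted p = 1.08e-05) from #3, although KEAP1 KO #1 also fell against LL2 WT.

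Il15ra, the receptor chain that presents an interleukin in trans, was at 5.59, 4.88 and 4.57 CPM across the LL2 WT samples. The values were 8.86, 6.63 and 10.33 CPM for #1, 0.914, 1.22 and 1.60 CPM for #2 and 3.76, 3.35 and 4.88 CPM for #3, with log2 differences of -2.70 ± 0.27 (adjusted p = 5.25e-05) from #1 and -1.62 ± 0.27 (adjusted p = 0.00987) from #3. Cdk18 (6.38 to 2.83 CPM from LL2 WT to the clone), the progestin receptor gene Paqr8 (4.10 and 1.73 CPM), Bdh2 of ketone body and siderophore metabolism (2.04 and 0.519 CPM) and Plcl2 (0.711 and 0.173 CPM) were lower by smaller amounts. Their differences from KEAP1 KO #3 had adjusted p of 0.0443, 0.00568, 0.0485 and 0.0485. Also lower was the predicted gene Gm48836, listed at 0 in all samples of KEAP1 KO #2 and at 9.28 CPM in LL2 WT. The higher genes of this set were Cemip, a hyaluronan-depolymerizing protein (0.154 to 0.976 CPM), Lrp2, the endocytic receptor megalin (0.182 to 1.56 CPM), and the predicted gene Gm14186, listed at 0 in the other 4 lines and at 1.17, 1.21 and 1.11 CPM in this clone.

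In the other 11 genes at least 1 other clone was called as well. Renbp, a renin-binding protein and N-acyl-glucosamine epimerase, was at 1.53, 0.763 and 1.12 CPM across the LL2 WT samples. The values were 0.698, 0.638 and 0.114 CPM for #1, 7.53, 8.11 and 8.58 CPM for #2 and 0.323, 0.598 and 0.112 CPM for #3. KEAP1 KO #2 lay above LL2 WT and the other clones below it, with log2 differences of 4.02 ± 0.54 (adjusted p = 0.000477) from #1 and 4.36 ± 0.54 (adjusted p = 0.00110) from #3. Bpifb4 rose in all 3 clones and most in #2 (2.98, 6.16 and 2.47 CPM in #1, #2 and #3, against 0.880 CPM in LL2 WT). Eya1, a developmental transcriptional phosphatase, and Ndn fell in KEAP1 KO #3 too but less far, Eya1 being at 7.94, 0.367 and 1.66 CPM and Ndn at 11.6, 1.96 and 5.05 CPM in LL2 WT, #2 and #3. Pcdhga10 followed the same order (4.34, 0.594 and 1.67 CPM). The next 4 genes fell in KEAP1 KO #2 and rose in another clone, namely the intestinal homeobox gene Cdx2 (0.708 CPM in LL2 WT, 5.995 CPM in #1, listed at 0 in every sample of #2 and 0.162 CPM in #3), Akr1c14 (in LL2 WT, #1 and #2 0.878, 11.9 and 0.212 CPM), Pcp4l1 (in the same order 0.884, 4.08 and 0.0695 CPM) and the T-cadherin gene Cdh13. Cdh13 was at 1.94 CPM in LL2 WT, 0.429 CPM in #1, 0.0430 CPM in #2 and 5.97 CPM in #3, so that it fell in #1 as well. Fam83g rose in both other clones (1.98 and 2.95 CPM) and fell in #2 (0.788 to 0.240 CPM).

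**Figure D5:**
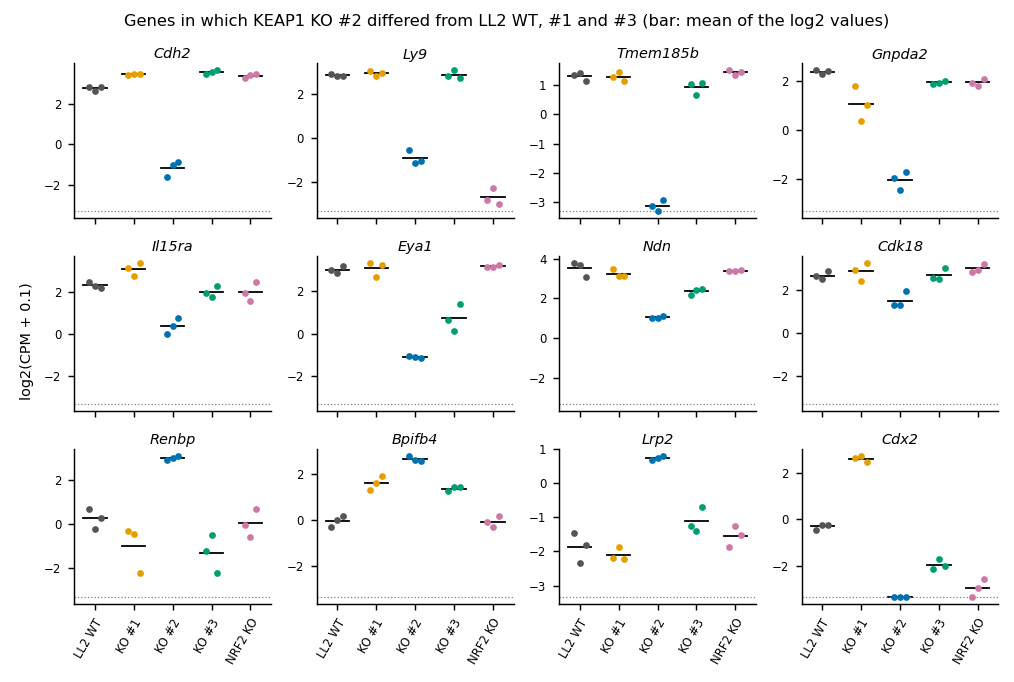
Each panel shows 1 gene in which KEAP1 KO #2 differed from LL2 WT and from both other KEAP1 KO clones, with log2(CPM + 0.1) on the y axis, the 5 lines on the x axis, 1 point per sample and a bar at the mean of the log2 values, and the dotted line marks a value of 0. In Cdh2, Tmem185b, Gnpda2, Il15ra, Eya1, Ndn and Cdk18 all 3 samples of KEAP1 KO #2 are the lowest of the 15, in Renbp, Bpifb4 and Lrp2 the highest, and in Ly9 only the NRF2 KO samples lie lower.

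In 18 of the 2006 changed genes another KEAP1 KO clone was called in the opposite direction (8 that rose in KEAP1 KO #2 and 10 that fell). Among the 8 named by the smallest adjusted p of the difference, 6 rose in KEAP1 KO #2 and #3 and fell in #1. Arap3, a GTPase-activating protein of Arf signalling, was at 15.4, 8.83 and 15.3 CPM in LL2 WT, 2.72, 2.75 and 4.84 CPM in #1 and 33.3, 28.5 and 45.0 CPM in #2, a log2 difference between the clones of 3.36 ± 0.29 (adjusted p = 2.19e-05). Nckap1l, the haematopoietic subunit of the actin-nucleating WAVE complex, was at 1.69, 0.693 and 9.36 CPM in these lines (log2 difference 3.73 ± 0.35, adjusted p = 3.56e-05). The exchange factor genes Ngef (5.76, 2.19 and 16.9 CPM) and Cyth4 (1.02, 0.336 and 4.95 CPM), the phosphoinositide phosphatase Inpp4b (2.76, 1.39 and 5.81 CPM) and the glutamate receptor auxiliary subunit Neto2 (1.24, 0.469 and 3.03 CPM) followed the same order. Il1rl1, the receptor for the alarmin Il33, was at 88.8, 88.7 and 42.0 CPM in LL2 WT, 132, 207 and 234 CPM in #1 and 38.2, 38.0 and 23.6 CPM in #2, so that it fell in KEAP1 KO #2 (log2FC = -1.09 ± 0.37, adjusted p = 0.0398) and rose in #1. The protocadherin gene Pcdhac2 rose in #1 and #2 (0.585 to 2.104 CPM in #2) and was listed at 0 in every sample of #3. The call did not hold in Il1rl1 without LL2 WT sample 1 or 2 or KEAP1 KO #2 sample 1, 2 or 3 (log2FC -1.20 to -0.86, adjusted p 0.0629 to 0.135), Inpp4b without LL2 WT sample 3 or KEAP1 KO #2 sample 3 (log2FC 0.91 to 0.98, adjusted p 0.0228 to 0.0251) and in Neto2 without LL2 WT sample 1 or KEAP1 KO #2 sample 1 or 2 (log2FC 1.001 to 1.14, adjusted p 0.0749 to 0.101).

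The changed genes were spread over all autosomes and the X chromosome. Of the 23 genes that differed from LL2 WT and both other clones, 6 lie on chromosome 1, which holds 856 of the 14412 tested genes that could be placed (GRCm38). They are Eya1 (chr1:14168954-14310235), Paqr8 (chr1:20890606-20939650), Tmem185b (chr1:119526160-119528983), Cdk18 (chr1:132112237-132139684), Pcp4l1 (chr1:171173262-171196268) and Ly9 (chr1:171588624-171607410), and all 6 were lower. On chromosome 1, 107 genes fell (12.5%, the highest share of any autosome) and 56 rose (6.54%). The median log2FC of its 657 genes with a mean of at least 1 CPM was -0.16, against 0.03 for all such genes that could be placed, and the median difference was -0.35 from KEAP1 KO #1 and -0.03 from #3. Over the autosomes the median log2FC ranged from -0.16 on chromosome 1 to 0.23 on chromosome 13. Chromosome 7 was close to chromosome 1, with a median of -0.145 over 855 genes, and median differences of -0.262 from #1 and 0.034 from #3. The 13 mitochondrially encoded genes had a median log2FC of 0.59, with 1 of them, mt-Nd3, passing the test. These medians were not tested, since genes of 1 chromosome in 1 clone are not replicates.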

How the data were processed

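RNA of 15 samples (5 lines, 3 samples each, labelled biological replicates) was sequenced by the authors as 50-base paired reads. The deposited CPM table was made by the authors, who aligned reads with Kallisto. The study's methods name GRCm38.p6 and the submitters' processing notes name GRCm39 with bcl2fastq 1.9.0, so the build is unsettled. Coordinates here are GRCm38 (GENCODE M21, or RefSeq where absent), matched by symbol for 14412 of 14652 tested genes. Strand and paralog handling of the counting are not given in the sources used here. Values were not whole multiples of 1 read, so read depth could not be recovered, and the 6 samples listed 18357 to 19750 genes above 0. A row with no gene name (0.0214% to 0.0491% of a sample) was left out.

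Of 35880 symbols, 21228 with a CPM sum under 3 over the 15 samples were removed. One mean per line was fitted with limma 3.58.1 (R 4.3.3, trend) to log2(CPM + 0.1), and p-values were adjusted by Benjamini-Hochberg over 14652 genes. All p-values measure the spread between these samples, which may be partly technical. The fit was run on simulated data of independent samples, with changes planted only in genes well above 0. The real samples 1 and 2 were close and sample 3 stood apart, so the simulation checks the code and not the calls. Python 3.11.15 and pandas 2.3.3 summarised the tables. The comparison, the 47 gene lists and the naming rule were chosen with earlier results of these data known, and no list is independent support. Named were Keap1 and Nfe2l2, the 10 genes per direction with the largest fold change (mean of at least 5 CPM in the higher line), the 10 with the largest CPM difference, up to 12 per direction that no other KEAP1 KO clone shared and 8 of opposite direction (at least 2 CPM), up to 4 per list with at least 3 called members (at least 2 CPM, largest fold change), and markers at 1 CPM or more. Predicted genes were passed over unless singled out, and some named genes are not reported here. 

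Replicate numbers were checked for pairing by correlating deviations from line means over 11676 genes. Between KEAP1 KO #2 and #3 every same-number correlation reached the minimum of 0.1 required (r = 0.278, 0.126 and 0.546). With LL2 WT (0.0587, 0.267 and 0.437) and #1 (0.0267, 0.275 and 0.450) not every one did. Correlations between unlike numbers were not part of that rule. Sample 2 of KEAP1 KO #2 correlated more with sample 1 of #3 (r = 0.269) than with sample 2 of #3 (r = 0.126). A pairing of samples 1 and 2 by number was therefore not shown. Promoters were RefSeq windows of 300 bases. Alternatives changed the pseudocount, filter, scaling, samples in the model, variance model, replicate block and samples left out. Leaving out number 3 of every line, averaging samples 1 and 2, and the wider set of genes differing from both clones were added after seeing the data.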

Additional observations from a re-analysis of the deposited data

Results flagged for a closer look

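Genes were singled out where KEAP1 KO #2 and the other KEAP1 KO clones differed by a direct test of the difference (limma, adjusted over 14652 genes). Those set against the mean of KEAP1 KO #1 and #3 were chosen because #2 had been called different from each clone. That mean difference averages the 2 differences used for the choice, so its p-values are a description and no further support. In Cdx2 and Cdh13 it also averages 2 clones with unlike levels. Against the mean of KEAP1 KO #1 and #3, the log2 difference of KEAP1 KO #2 was -4.69 in Cdh2 (adjusted p = 2.47e-09), -4.25 in Tmem185b (adjusted p = 3.32e-08), -3.85 in Pcp4l1 (adjusted p = 3.54e-05), -3.84 in Akr1c14 (adjusted p = 1.2e-05), -3.83 in Ly9 (adjusted p = 2.48e-07), -3.65 in Cdx2 (adjusted p = 5.45e-06), -3.64 in Cdh13 (adjusted p = 7.51e-05), -3.54 in Gnpda2 (adjusted p = 1.2e-05), -3.00 in Eya1 (adjusted p = 1.68e-05), -2.87 in Fam83g (adjusted p = 1.2e-05), -2.16 in Il15ra (adjusted p = 0.000262), -1.83 in Plcl2 (adjusted p = 0.000318), -1.81 in Pcdhga10 (adjusted p = 0.00124), -1.77 in Ndn (adjusted p = 3.76e-05), -1.73 in Bdh2 (adjusted p = 0.00125), -1.28 in Cdk18 (adjusted p = 0.00458) and -1.22 in Paqr8 (adjusted p = 0.0018). In the opposite direction it was 4.19 in Renbp (adjusted p = 0.000318), 2.33 in Lrp2 (adjusted p = 0.000542), 1.44 in Cemip (adjusted p = 0.00523) and 1.16 in Bpifb4 (adjusted p = 0.00341).

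In 8 further genes KEAP1 KO #2 and another clone changed in opposite directions against LL2 WT. These were named by the smallest adjusted p of the difference, so the p-values given here are no further support. The log2 difference of KEAP1 KO #2 from #1 was 3.36 in Arap3 (adjusted p = 2.19e-05), 3.49 in Cyth4 (adjusted p = 0.000255), -2.51 in Il1rl1 (adjusted p = 0.00097), 2.04 in Inpp4b (adjusted p = 0.000209), 3.73 in Nckap1l (adjusted p = 3.56e-05), 2.44 in Neto2 (adjusted p = 0.00103) and 2.92 in Ngef (adjusted p = 8.53e-06), and that from #3 was 4.44 in Pcdhac2 (adjusted p = 1.33e-05). Groups held 3 samples each, so no single sample was tested as an outlier.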

How the results depend on the processing

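Of 207 named genes that were called, 157 kept direction and call in every one of the 25 alternatives that held a value for the gene. The cause of the lost calls was not tested. The direction was kept throughout, except that Egfl7, which was not called, ranged from -0.22 to 0.0014 in log2FC when single samples were left out, with the positive value without LL2 WT sample 1. Genes that differed from both other clones with neither of these called against LL2 WT are termed unshared. With a pseudocount of 1 CPM, which lowers fold changes of genes near 0 by construction, 536 genes rose and 739 fell against LL2 WT, 165 and 219 differed from #1, 20 were higher than in #3, 3 and 7 differed from both clones, and 5 lower genes were unshared. With 0.5 CPM 10 lower genes differed from both clones, and with 0.01 CPM 3 higher genes did, of which 1 was unshared. With no filter these numbers were 15 and 13, and quantile normalization gave 5 unshared higher genes. With only the compared lines in the model, 14 genes were higher and 15 lower than in #3, 3 and 7 differed from both clones and 5 lower genes were unshared. With the replicate block, 55 and 80 differed from #3, 9 and 40 from both clones, and 5 and 20 were unshared. All 2006 calls against LL2 WT were kept with the block and 282 were added, although a pairing of samples 1 and 2 by number was not shown. Without sample 3 of every line 3 higher genes differed from both clones. With samples 1 and 2 of KEAP1 KO #2 averaged, 254 genes were lower than in #1, 23 lower than in #3 and 5 lower genes were unshared. With this done in every line, 684 genes fell against LL2 WT, 80 and 135 differed from #1, 8 and 11 from #3, 1 and 7 from both, and 1 and 4 were unshared. When 1 sample was left out, 738 to 1004 genes rose and 809 to 1367 fell against LL2 WT, 172 to 251 were higher and 264 to 473 lower than in #1, 18 to 39 and 22 to 36 than in #3, 2 to 6 and 12 to 25 than in both, and 1 to 5 and 5 to 13 were unshared. Depth is unknown, so counting error of genes near 0.1 CPM could not be given.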
